A study of Homo sapiens with 2 samples.

Results

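Transfer RNA (tRNA) genes and the open chromatin around them were described in Saos-2 and U2OS, 2 established human cell lines derived from osteosarcoma. DNase-seq was used, in which DNase I cuts DNA that is not covered by nucleosomes or bound protein, and stretches with many cuts are called as hotspots. Each line was represented by 1 library, neither line was treated, and the labels name no replicate, so the spread between replicates is unknown for every value and no test was made. A hotspot counted as a tRNA-gene hotspot when it lay within 500 bp of the span of a nuclear gene that RefSeq annotates as tRNA on chromosomes 1 to 22 (hg38). This rule, which uses position alone, took 161 of 51556 hotspots in Saos-2 and 154 of 63388 in U2OS, or 315 of 114944 in all, at 439 tRNA genes.

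tRNA genes are transcribed by RNA polymerase III (Pol III). Their promoter lies inside the gene: TFIIIC binds an A box near the start and a B box near the end of the transcribed sequence, and then places TFIIIB, which recruits the polymerase upstream. The human genome carries many more tRNA genes than there are anticodons. A gene name such as TRH-GTG1-9 gives the amino acid (H, histidine), the anticodon (GTG), a number shared by genes with the same mature sequence (1) and the copy (9).

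Sequences were available for the 14 tRNA genes that lie wholly inside the RefSeq promoter window of a neighbouring transcript, before its start (GRCh38.p14). They show how alike tRNA genes with different hotspot calls can be. Each is written 5′ to 3′ on the strand that carries the B box, with matches to the A box and the B box in capitals. The first pair is the histidine genes TRH-GTG1-3 (chr1:148281365-148281436, no hotspot in either line) and TRH-GTG1-9 (chr15:45201151-45201222, a hotspot in Saos-2 but not in U2OS).
TRH-GTG1-3: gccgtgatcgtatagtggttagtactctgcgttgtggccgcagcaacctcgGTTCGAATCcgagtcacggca
TRH-GTG1-9: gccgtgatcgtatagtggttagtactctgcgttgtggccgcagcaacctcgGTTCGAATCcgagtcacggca
The proline genes TRP-TGG3-2 (chr14:20684016-20684087, hotspots in both lines) and TRP-TGG3-5 (chr16:3188094-3188165, no hotspot in either line) form the second pair.
TRP-TGG3-2: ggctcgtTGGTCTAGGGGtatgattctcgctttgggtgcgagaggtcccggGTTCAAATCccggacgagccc
TRP-TGG3-5: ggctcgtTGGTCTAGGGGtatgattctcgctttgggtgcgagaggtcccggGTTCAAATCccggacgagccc
The asparagine genes TRN-GTT4-1 (chr1:16889677-16889750, no hotspot in either line) and TRN-GTT6-1 (chr1:143735920-143735993, a hotspot in U2OS but not in Saos-2) form the third.
TRN-GTT4-1: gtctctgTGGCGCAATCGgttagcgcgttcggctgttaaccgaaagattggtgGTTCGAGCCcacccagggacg
TRN-GTT6-1: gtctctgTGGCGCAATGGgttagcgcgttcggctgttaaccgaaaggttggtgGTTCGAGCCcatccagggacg
The genes TRF-GAA1-5 (phenylalanine, chr13:94549650-94549722), TRR-ACG2-1 (arginine, chr3:45688999-45689071) and TRI-TAT2-2 (isoleucine, chr6:27020346-27020439) had a hotspot in both lines.
TRF-GAA1-5: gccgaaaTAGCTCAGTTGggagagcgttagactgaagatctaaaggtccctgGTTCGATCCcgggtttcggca
TRR-ACG2-1: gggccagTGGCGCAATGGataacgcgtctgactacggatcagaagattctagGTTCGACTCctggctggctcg
TRI-TAT2-2: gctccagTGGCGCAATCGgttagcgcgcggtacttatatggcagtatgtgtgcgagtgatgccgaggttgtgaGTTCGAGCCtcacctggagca

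The histidine pair had 0 differences over 72 bases, and so did the proline pair, although the genes of each pair differed in their hotspots. The identical genes lie in different surroundings: the Saos-2 hotspot at TRH-GTG1-9 also covered an end of the protein-coding gene SHF, 35 bp away, TRP-TGG3-2 lies 90 bp from ANG and TRP-TGG3-5 lies 39 bp from OR1F1. Counted from 1 at the 5′ end, the second asparagine gene differed from the first by C17G, A47G and C65T. The B box was searched as GTTCNANNC and the A box by its consensus, on both strands. All 14 genes held exactly 1 B box match, 12 bases before the end of the gene, and 12 of them held an A box match at position 8. Both histidine genes held no match to the A box consensus. Both motifs are short: among 35116 RefSeq promoter windows of 300 bp, 7.48% held the B box, 21.7% the A box and 1.77% both. The 14 sequences came from genes beside an annotated start and are not a sample of all tRNA genes.

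Hotspots were found at a minority of tRNA genes, at a higher share than at other short genes. In Saos-2, 126 of the 439 tRNA genes (28.7%, Wilson 95% interval 24.7 to 33.1%) had a hotspot within 500 bp. In U2OS, 140 (31.9%, interval 27.7 to 36.4%) did. Of 6224 other annotated genes under 200 bp long, 4.77% had a hotspot within 500 bp in Saos-2 and 4.9% in U2OS. Among these, small nuclear RNA genes were at 22.8% in Saos-2, and microRNA genes at 8.20%. The 108 annotated tRNA pseudogenes, which are not annotated as functional, were at 1.85% and 3.7%. They were chosen by symbol or synonym, a rule that also admits nuclear look-alikes of mitochondrial tRNA genes. Intervals cover counting error only, and they are too narrow here because neighbouring tRNA genes share hotspots: 36 Saos-2 and 27 U2OS hotspots lay at more than 1 tRNA gene.

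Both lines had a hotspot at 90 tRNA genes (20.5%, interval 17.0 to 24.5%). Another 36 had one in Saos-2 alone and 50 in U2OS alone, and 263 had none. For the other short genes the share in both lines was 3.33%, and for tRNA pseudogenes it was 1.85%. It was 14.1% for small nuclear RNA genes among the short genes, and 20.6% for single ends of protein-coding genes, close to the share of tRNA genes. At 87 of the 90 genes the hotspots of the lines overlapped each other, and at the other 3 genes they were separate. The median distance of the 263 genes without a hotspot to the nearest one was 22.4 kb in Saos-2 and 16.6 kb in U2OS. Of these genes, 69 had a Saos-2 hotspot within 10 kb and 97 a U2OS hotspot. Such distances were not taken for other positions in the genome.

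Most of the hotspots sat on a tRNA gene itself. In Saos-2, 103 of the 161 hotspots (64.0%) overlapped the gene span, which is 73 bp at the median, and in U2OS 104 of 154 (67.5%) did. The bases within 100 bp of the gene centre were covered by a hotspot at 20.4% in Saos-2 and 19.99% in U2OS, averaged over all 439 genes. Between 2.9 and 3 kb away the coverage was 0.844% and 0.528%. Around the other short genes it was 1.36% and 1.38% at the centre, so most of the height of the tRNA gene profile was not shared by short genes as a class.

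**Figure D1:**
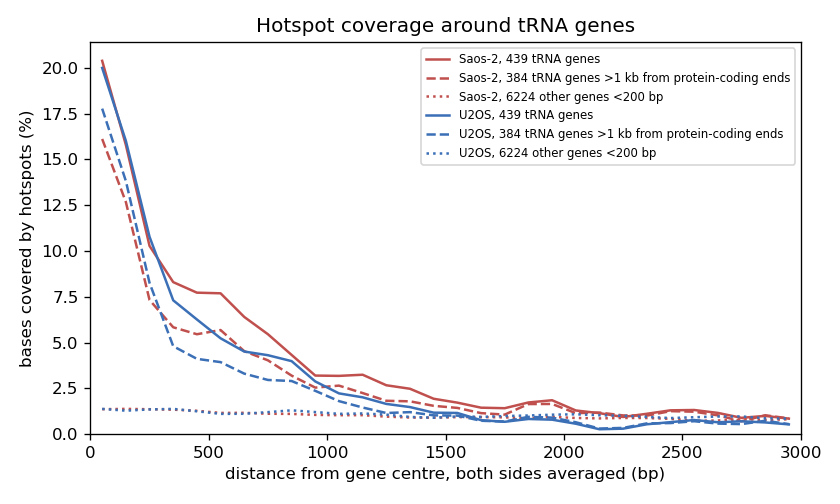
Share of bases covered by hotspots (%, y axis) against the distance from the gene centre (bp, x axis, both sides averaged in bins of 100 bp). Solid lines are all 439 tRNA genes, dashed lines the 384 tRNA genes over 1 kb from a protein-coding gene end and dotted lines 6224 other genes under 200 bp, with Saos-2 in red and U2OS in blue; tRNA genes rise to 20.4% and 19.99% at the centre, where the other genes reach 1.36% and 1.38%.

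The distance limit put some genes on its edge. In Saos-2, 6 genes had their nearest hotspot in the last 100 bp inside the limit and 1 gene in the first 100 bp beyond it. In U2OS these numbers were 6 and 7. Among the 36 genes with a hotspot in Saos-2 only, 6 had a U2OS hotspot within 1 kb, and among the 50 with one in U2OS only, 3 had a Saos-2 hotspot within 1 kb.

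Width and significance were then compared with the rest of each list. The deposited significance is a −log10 value per hotspot with an upper limit of 100, and it was used to rank hotspots within a list. tRNA-gene hotspots were wider at the median than their lists and of modest significance. Saos-2 members had a median width of 281 bp and U2OS members of 278 bp, against 239 and 249 bp for all hotspots on chromosomes 1 to 22. Their median significance was 3.50 for Saos-2 and 3.69 in U2OS, against 4.06 and 4.63 for all hotspots. The median member stood at percentile 42.8 of its list in Saos-2 and 40.2 in U2OS. Hotspots on the gene span itself were wider, at 330 and 349 bp, and stood near the middle of the lists at percentiles 48.8 and 50.5. Those beside the span were at percentiles 25.8 and 15.3. Hotspots within 500 bp of an end of a protein-coding gene were wider than the members as a whole, at 309 and 323 bp. They stood at percentiles 65.5 and 65.8. A wide hotspot also touches a window or a gene span more easily, so the distance rule itself favours width. The significance of a tRNA-gene hotspot ranged from 1.40 to 44.6 in Saos-2 and from 1.41 to 46.4 in U2OS, so none reached the limit.

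The U2OS list was longer, while the lines had similar numbers of tRNA-gene hotspots. U2OS had 1.24-fold as many hotspots as Saos-2 on chromosomes 1 to 22, and 0.957-fold as many at tRNA genes. Which line had more turned with the settings: U2OS had more after neighbouring hotspots were merged (133 against 119 in Saos-2), within 100 bp (126 against 118), on the gene span (104 against 103), within 1 kb (182 against 179) and with tRNA genes near protein-coding gene ends left out (116 against 113). When the U2OS list was shortened to the length of the Saos-2 list by significance, U2OS kept 107 tRNA-gene hotspots against 161 in Saos-2. The number of reads behind each list is unknown, and its part in these numbers was not tested.

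Of the Saos-2 tRNA-gene hotspots, 99 (61.5%, interval 53.8 to 68.7%) shared 1 bp or more with a U2OS hotspot, and over all Saos-2 hotspots 58.3% did. Of the U2OS ones, 92 (59.7%, interval 51.8 to 67.2%) overlapped a Saos-2 hotspot, against 46.8% over all U2OS hotspots. The Saos-2 share was near that of its list, and the U2OS share was above it. In the 50% of U2OS hotspots with the lower significance, 46.2% of 93 tRNA-gene hotspots were overlapped against 30.3% of all, and in the upper 50% these shares were 80.3% of 61 and 63.4%. With lists of equal length the U2OS share was 69.2% at tRNA genes and 52.2% over all hotspots. For Saos-2 these were 53.4% and 53.2%. Hotspots at protein-coding gene ends were shared more often, at 83.6% in Saos-2 and 73.7% in U2OS.

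A protein-coding gene close by went with a higher share of tRNA genes with hotspots. Only 55 tRNA genes lay within 1 kb of an end of a protein-coding gene, and 29 of these (52.7%, interval 39.8 to 65.3%) had a hotspot in both lines. Of the 384 genes farther away, 61 (15.9%, interval 12.6 to 19.9%) did. Other short genes also had a higher share near such an end, at 24.9% within 1 kb and 1.84% farther away. Since a hotspot beside both genes cannot be given to one of them from these lists, the protein-coding neighbour is named for most of the genes below that lie near one. The gene table gives spans without strand or exons, so introns and exons were not told apart. By span, 49 tRNA genes lay inside a protein-coding gene, and 14 of these had a hotspot in both lines.

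The tRNA genes with the highest summed significance had protein-coding neighbours in 4 of 5 cases. TRX-CAT1-1, an initiator methionine tRNA gene (chr1:153671250-153671321, 257 bp from ILF2), reached 44.6 in Saos-2 and 35.1 in U2OS, with hotspots 1170 and 847 bp wide. TRR-ACG1-3, an arginine gene (chr14:22929701-22929773, 325 bp from PRMT5), had 36.3 in Saos-2 and 46.4 in U2OS. Both genes stood above the 98th percentile of both lists. TRR-CCT4-1 (arginine, chr7:139340700-139340772, inside the spans of LUC7L2 and FMC1) had 26.3 and 19.6. TRQ-CTG1-4 (glutamine, chr15:65869062-65869133, 358 bp from RAB11A) had 8.88 in Saos-2 and 32.2 in U2OS. The exception was TRL-CAA6-1 (leucine, chr1:161611946-161612029), 11167 bp from FCGR3B, with 9.82 in Saos-2 and 34.7 in U2OS. Its hotspots did not touch the gene: they began 310 bp away in Saos-2 and 292 bp away in U2OS.

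Among the genes shown above by sequence, TRR-ACG2-1, 325 bp from SACM1L, had 31.2 in Saos-2 and 4.91 in U2OS, and the 1087 bp Saos-2 hotspot covered the gene while the 369 bp U2OS one began 49 bp from it, and both hotspots reached the end of SACM1L. TRF-GAA1-5 had 14.1 in Saos-2 and 22.3 in U2OS, 244 bp from an end of DCT, a melanin synthesis gene. TRI-TAT2-2 had nearly equal values, 8.51 and 8.10, and lay 111877 bp from any protein-coding gene end. TRP-TGG3-2 lay 90 bp from ANG, which encodes a ribonuclease that cleaves tRNAs, and had 6.25 and 3.09. TRL-AAG2-4 lay 188 bp from POLR3E, which encodes a subunit of Pol III itself, and had 4.94 and 8.11.

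Across the 87 genes with overlapping hotspots, the Spearman correlation of the best significance in each line was 0.58. The genes are not independent points, since neighbours share hotspots and all come from the same 2 libraries. Ranked within its own list, the best hotspot stood higher in Saos-2 at 54 of the 90 genes with a hotspot in both lines and higher in U2OS at 36. The same ranking was not made over all shared hotspots, and the lists differ in length. These counts are therefore not a result about tRNA genes. The median best significance at these genes was 5.27 in Saos-2 and 5.29 in U2OS. At genes with a hotspot in 1 line only it was 3.81 for Saos-2 and 2.87 for U2OS.

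**Figure D2:**
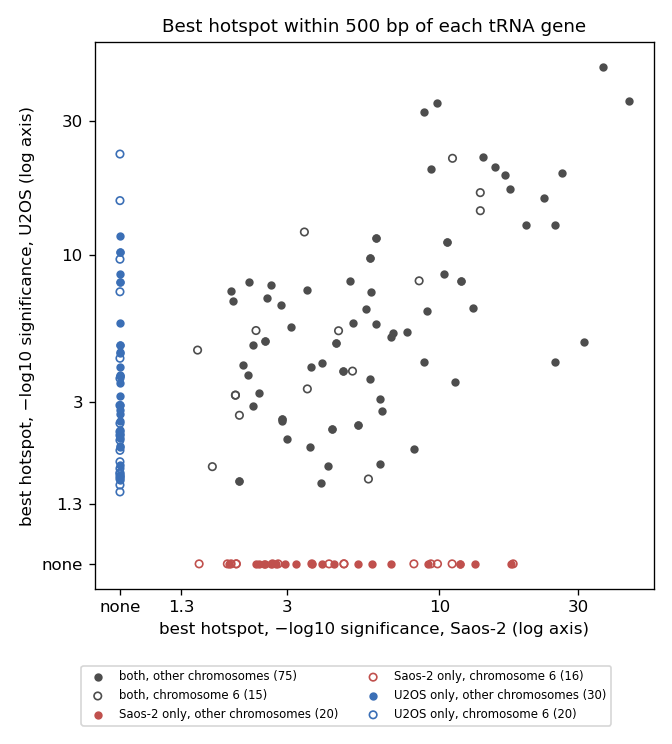
Best hotspot within 500 bp of each of the 176 tRNA genes with a hotspot, as −log10 significance in Saos-2 (x axis) and in U2OS (y axis), both log axes, with genes lacking a hotspot in a line placed at "none". Filled points are genes on other chromosomes and open points genes on chromosome 6; 75 filled and 15 open points have a hotspot in both lines.

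Some tRNA genes with a hotspot in 1 line only stood high in that line's list. Outstanding in Saos-2 was a group of 4 genes within 4 kb on chromosome 1. TRE-CTC1-1 (glutamate, chr1:146035692-146035763) had a significance of 17.6 and TRK-CTT2-1 (lysine, chr1:146039401-146039473) of 13.2. Between them, TRG-TCC2-1 (glycine, chr1:146037061-146037132) and TRH-GTG1-1 (histidine, chr1:146038044-146038115) shared a hotspot of 1580 bp with a significance of 11.7, the widest at any tRNA gene in either line. The nearest U2OS hotspot was between 12500 and 16210 bp from these genes. The gene with the highest Saos-2 value, TRS-AGA3-1 (serine, chr6:27532208-27532289, 17.9), met the distance rule by its last base: its Saos-2 hotspot was 500 bp away and a U2OS hotspot lay 632 bp away.

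In U2OS the corresponding genes were TRR-TCG5-1 (arginine, chr6:28543114-28543186, significance 22.8), TRM-CAT4-2 (methionine, chr6:26743263-26743335, 15.6), TRK-CTT3-1 (lysine, chr16:3157405-3157477, 11.6), TRK-CTT1-2 (lysine, chr15:78860562-78860634, 10.2) and TRG-GCC1-5 (glycine, chr21:17454789-17454859, 10.2). At TRK-CTT1-2 the hotspot of 10.2 lay 153 bp from the gene, and the one on the gene had 2.27. From the 5 genes, the nearest Saos-2 hotspot was between 6481 and 83264 bp away. These 5 genes were all at least 8159 bp from a protein-coding gene end. All of these differences compare 1 library with 1 library, and DNA copy number, which can differ between the lines, was not measured here.

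Genomic arrangement was examined next, because tRNA genes lie in clusters. Chained at gaps of at most 100 kb, the 439 genes formed 129 groups, of which 81 were single genes and 15 held 5 or more genes. Single genes had a hotspot in both lines most often, at 34 of 81 (42.0%, interval 31.8 to 52.8%). In clusters of over 10 genes, 31 of 249 (12.4%, interval 8.91 to 17.1%) did. Single genes also had more protein-coding neighbours. With tRNA genes within 1 kb of a protein-coding gene end left out, the shares were 29.8% (17 of 57) and 9.83% (23 of 234), in the same order. Of the 249 genes in clusters of over 10, 141 lay in 5 clusters on chromosome 6, so this result shares genes with the one on that chromosome below.

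**Figure D3:**
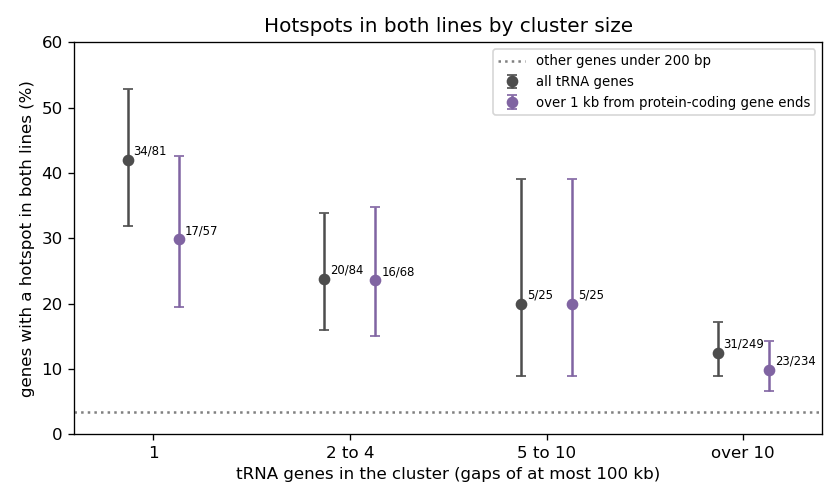
Share of tRNA genes with a hotspot in both lines (%, y axis) by the number of tRNA genes in the cluster (x axis), with 95% Wilson intervals as bars and counts beside the points. Grey points are all tRNA genes, purple points those over 1 kb from a protein-coding gene end, and the dotted line is the 3.33% of other genes under 200 bp; the share is 42.0% for single genes and 12.4% in clusters of over 10.

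Chromosome 6 held 155 of the 439 tRNA genes, 141 of them in 5 clusters on the short arm (26286526 to 28989083), where the histone genes also lie. A hotspot was found in either line at 51 of the 155 genes (32.9%) and at 125 of the 284 genes elsewhere (44.0%). Sharing differed more. On chromosome 6, 15 of the 51 (29.4%, interval 18.7 to 43.0%) had a hotspot in both lines, and elsewhere 75 of 125 (60%, interval 51.2 to 68.2%) did. This order was the same with lists of equal length (32.5% and 57.3%), at a significance of at least 2 (25.6% and 56.7%), within 1 kb (35.6% and 63.9%), for hotspots on the gene span (24.3% and 50%) and away from protein-coding genes (25% and 57.6%).

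Hotspots of chromosome 6 as a whole gave a smaller or opposite difference. Of all Saos-2 hotspots on chromosome 6, 51.3% were overlapped by U2OS, against 58.9% elsewhere. Of all U2OS hotspots there, 52.9% were overlapped by Saos-2, against 46.5% elsewhere. For tRNA-gene hotspots the shares on chromosome 6 were 40.0% of 40 in Saos-2 and 41.0% of 39 in U2OS, and elsewhere they were 68.6% of 121 and 66.1% of 115. The chromosome 6 members also had lower significance, with medians of 3.11 in Saos-2 and 2.92 in U2OS against 3.61 and 3.97 elsewhere, and the part of this in the sharing was not tested.

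The clusters differed in how many of their genes had hotspots. In the 5 clusters of the short arm of chromosome 6, hotspots in both lines were at 0 of 13, 4 of 31, 2 of 21, 3 of 33 and 4 of 43 genes, in order along the arm. The first of them (26286526 to 26331515) had hotspots at 3 genes in Saos-2, the best with a significance of 11.1, and at none in U2OS. The last (28474552 to 28989083) had hotspots in U2OS only at 9 genes and in Saos-2 only at 5. A further cluster of 6 genes on chromosome 6 (57800211 to 57856473), near PRIM2, contained no hotspot of either line.

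Chromosome 7 carries the main group of cysteine tRNA genes: 18 of the 19 genes in its 2 clusters read the Cys codons with the anticodon GCA. In the first cluster (149310190 to 149415209), no hotspot of either line lay anywhere in the span. In the second (149546540 to 149707740), each line had 3 hotspots, but only 1 of its 13 genes, TRC-GCA17-1, was near one, in U2OS with a significance of 8.01. The cluster of 32 genes on chromosome 1 (161399700 to 161612029), near the FCGR genes of Fc receptors, had hotspots in both lines at 3 genes and none in either line at 26. Those with none include genes of the same mature sequence repeated in the same order, such as TRE-CTC1-2 to TRE-CTC1-5. Reads from such repeats can map to several places, and the part of this was not tested.

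The most shared cluster lay on chromosome 14 (20609336 to 20684087), beside RNASE12 and ANG, with hotspots in both lines at 7 of 14 genes. Its proline and threonine genes TRP-AGG2-6 and TRT-TGT3-1 shared a hotspot of 862 bp in Saos-2 (significance 11.9) and of 675 bp in U2OS (8.12). On chromosome 12 (124921755 to 124940037) 2 of 5 genes had hotspots in both lines. On chromosome 11 (59550629 to 59566452) 3 of 8 did and 3 more had one in U2OS only. In Saos-2 the 3 genes shared 1 hotspot of 264 bp (2.89), the only Saos-2 member of this cluster. The clusters on chromosome 5 (181097070 to 181222467) and chromosome 16 (3150674 to 3192060) had hotspots in both lines at 3 of 17 and 1 of 14 genes.

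The 18 genes of the chromosome 17 cluster (8119155 to 8227064) fell into stretches. At its start, between ALOXE3 and HES7, TRK-TTT3-5 had 5 Saos-2 hotspots within 500 bp, the most at any tRNA gene. Its nearest U2OS hotspot was 926 bp away. The best of the 5 (5.27) lay on the neighbouring gene TRQ-CTG1-5, and the others were between 1.82 and 2.26. Next to it, TRQ-CTG1-5 and TRL-TAG1-1 had 5.27 in Saos-2 and 2.49 in U2OS. TRS-CGA1-1 and TRT-AGT5-1, near PER1, had a hotspot in U2OS only (3.73). Near BORCS6, TRT-AGT1-1 and TRI-AAT5-5 had hotspots in both lines, with 4.42 and 4.87. At the far end near CTC1, the genes from TRW-CCA1-1 to TRI-AAT4-1 had none in either line, and U2OS hotspots were at least 30446 bp away.

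**Figure D4:**
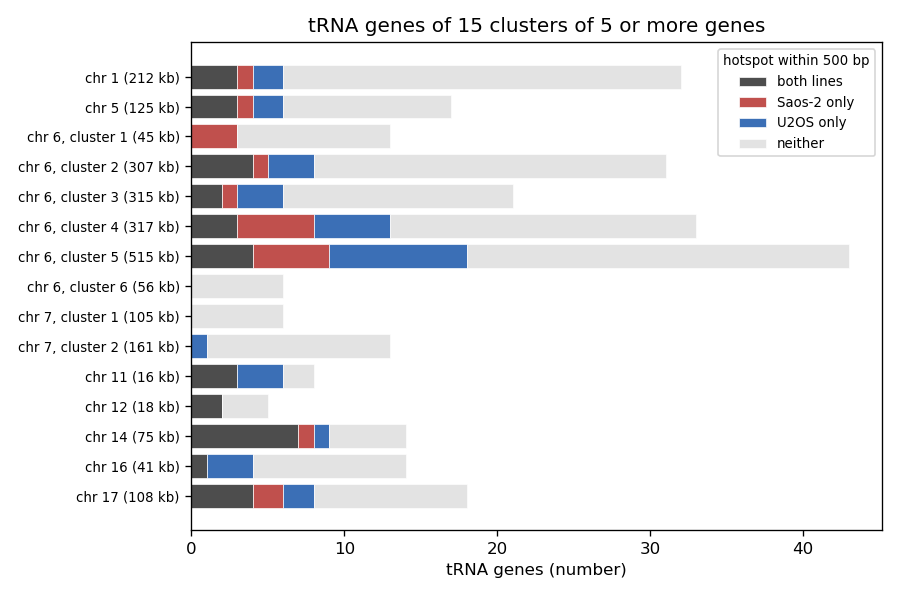
Number of tRNA genes (x axis) in each of the 15 clusters of 5 or more genes (y axis, with the span in kb), divided by whether a hotspot lay within 500 bp in both lines, 1 line or neither. The pale bars dominate the chromosome 6 and 7 clusters, and the chromosome 14 cluster has hotspots in both lines at 7 of 14 genes.

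Anticodon families, which set the supply of a given decoding tRNA, were tallied over the same genes. Of 48 families, 46 had at least 1 gene with a hotspot in either line and 43 had at least 1 in both. The 2 families without any were selenocysteine (anticodon TCA, 2 genes) and tyrosine with anticodon ATA (1 gene). Families of 5 or more genes with the highest shares in both lines were Ile-TAT (3 of 5), Pro-AGG (4 of 9), Leu-CAA, Pro-TGG and Arg-ACG (3 of 7 each). The lowest were Ala-CGC (0 of 5), Gly-GCC (0 of 13), Cys-GCA (0 of 29), Lys-CTT (1 of 14) and Phe-GAA (1 of 11). Families are small, so most intervals overlap. For Ile-TAT the interval was 23.1 to 88.2%, and for Cys-GCA 0 to 11.7%.

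Summed by amino acid, arginine tRNA genes had hotspots in either line at 19 of 26 genes, in both at 12, and proline genes in both at 9 of 20. Cysteine genes had hotspots in 1 line at 4 of 29 and in both at 0. Asparagine genes had hotspots in both at 3 of 26. In Ala-TGC and Val-CAC, 4 genes had a hotspot in 1 line only, all in the same line. Ala-TGC had 4 genes in U2OS only and 0 in Saos-2 only, with values between 1.63 and 1.84. Val-CAC had 4 in Saos-2 alone and 0 in U2OS alone. Both were picked out after their values were seen.

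**Figure D5:**
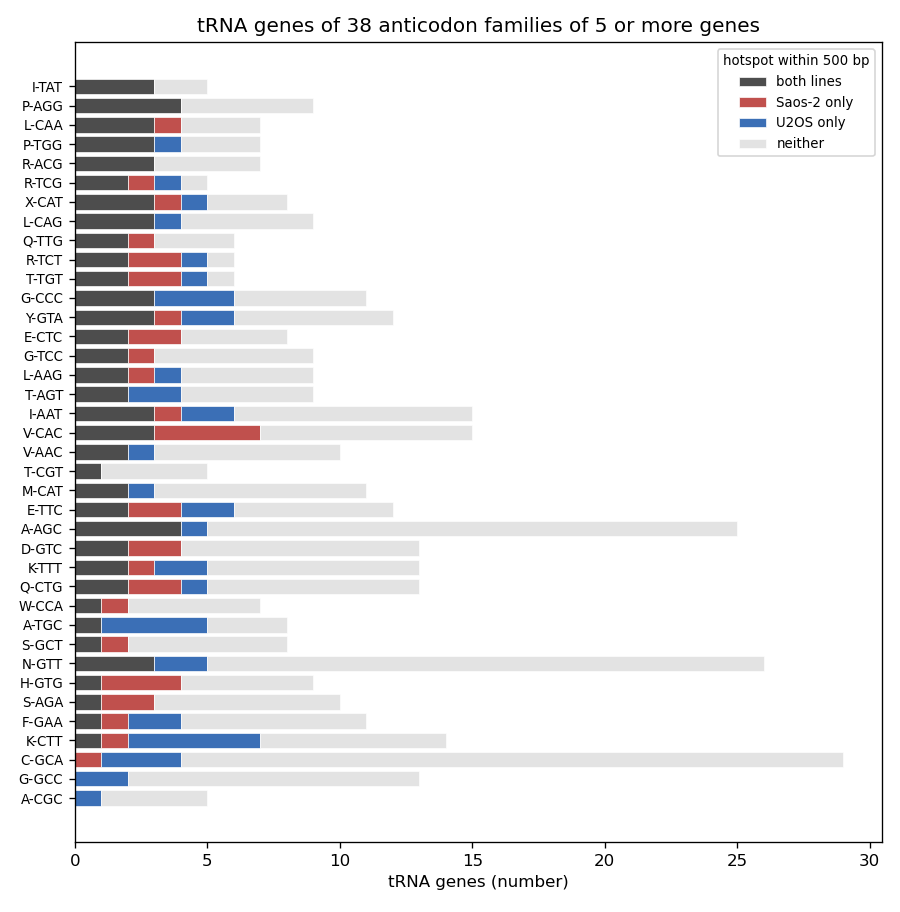
Number of tRNA genes (x axis) in each of the 38 anticodon families of 5 or more genes (y axis, amino acid letter and anticodon, with X for initiator methionine), divided by hotspot in both lines, 1 line or neither. Families are ordered by the share in both lines, from 3 of 5 for I-TAT to 0 of 29, 0 of 13 and 0 of 5 for C-GCA, G-GCC and A-CGC.

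The initiator methionine genes, which supply the tRNA that starts translation, share 1 mature sequence over 8 genes. Beside TRX-CAT1-1, hotspots in both lines were at TRX-CAT1-8 (chromosome 17, 9.38 in Saos-2 and 20.2 in U2OS) and TRX-CAT1-6 (chromosome 6, 2.06 and 2.70). TRX-CAT1-3 had a hotspot in Saos-2 only (2.01) and TRX-CAT1-5 in U2OS only (1.44). TRX-CAT1-2, TRX-CAT1-4 and TRX-CAT1-7, all on chromosome 6, had none. The 2 initiator genes outside chromosome 6 were thus those with the highest values in both lines.

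The selenocysteine genes, TRU-TCA1-1 on chromosome 19 and TRU-TCA2-1 on chromosome 22, had no hotspot within 500 bp. The nearest ones were 8274 bp (Saos-2) and 6716 bp (U2OS) from the first gene and 2369 and 938 bp from the second. In the Arg-TCT family, TRR-TCT3-1 (4.15 in Saos-2 and 1.78 in U2OS, at an end of SLC27A4) and TRR-TCT3-2 (2.89 and 2.58) had hotspots in both lines. Those of TRR-TCT3-2 were separate: the Saos-2 hotspot was 437 bp away and the U2OS hotspot lay on the gene. TRR-TCT1-1, inside BCAR3 and 494 bp from an end of it, had a Saos-2 hotspot of 885 bp (5.85) that reached this end. The nearest U2OS hotspot was 31414 bp from TRR-TCT1-1. TRR-TCT2-1, inside HES7, met the distance rule in Saos-2 only. Its best Saos-2 hotspot (4.33) lay on TRL-TAG1-1 and was overlapped by a U2OS hotspot. The nearest U2OS hotspot was 605 bp from TRR-TCT2-1. The Saos-2 hotspot on TRR-TCT2-1 itself had 2.02 and was not overlapped by U2OS. TRR-TCT4-1, inside AIM2, had 3.52 in U2OS only; its mouse counterpart is known for expression in the nervous system. TRR-TCT5-1 had none.

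Genes with many identical copies can lose reads that map to several places, and how such reads were treated is not given in the sources used here. Genes whose mature sequence was unique had a hotspot in both lines at 34 of 202 (16.8%, interval 12.3 to 22.6%). Genes with 2 to 4 copies of the same sequence did at 23 of 88 (26.1%, interval 18.1 to 36.2%), and genes with 5 or more copies at 33 of 129 (25.6%, interval 18.8 to 33.7%). The intervals overlap, and unique genes differed by location, at 5.95% on chromosome 6 and 24.6% elsewhere. Copies were counted by the sequence number in the gene name, which says nothing of the flanks. A gene with a unique mature sequence can therefore still lie in a duplicated stretch. The part of read mapping in these shares was not tested, and the shares do not measure it. The 20 gene models without a sequence number, 14 on chromosome 1 and 6 on chromosome 6, had no hotspot in either line.

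Other genes transcribed by Pol III and the genes of its machinery were set beside the tRNA genes. Of 37 other Pol III genes, 12 had a hotspot in both lines and 20 in neither, while 4 had one in Saos-2 alone and 1 in U2OS alone. RPPH1, the RNA of RNase P that trims tRNA 5′ ends, had 39.5 in Saos-2 and 35.6 in U2OS. RN7SL1, the RNA of the signal recognition particle, had 32.7 and 25.4, and RN7SK 9.29 and 12.6. The vault RNA genes VTRNA1-1, VTRNA1-2 and VTRNA1-3 had 15.8, 17.9 and 10.3 in Saos-2 and 4.31, 5.95 and 6.76 in U2OS. Found in Saos-2 only were VTRNA2-1 (4.24), RNY1 (2.54), RNY3 (2.21) and RNU6-8 (2.23), and in U2OS only BCYRN1 (3.25). None of the 17 annotated 5S rRNA genes, which lie in a tandem array, had a hotspot in either line. They account for 17 of the 20 genes with none. Reads from repeated copies can map to several places, and the part of this in the 12 of 37 was not tested. Over all other genes under 200 bp, which include most of the 37, the share in both lines was 3.33%.

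Of the 44 genes for Pol III, its initiation factors and tRNA processing enzymes, 35 (79.5%) had a hotspot within 500 bp of an end in both lines, against 40.3% of all 19126 protein-coding genes. Among them, TBP, a subunit of TFIIIB, had 22.4 in Saos-2 and 47.6 in U2OS, and MAF1, the repressor of Pol III, had 4.97 and 55.8. XPOT, the exporter of tRNAs from the nucleus, had 42.7 and 18.1. A hotspot in U2OS only was at POLR3G (9.43), which encodes the alternative form of a Pol III subunit, at POLR3D (3.83) and at POLR2L (1.97). CRCP had one in Saos-2 only (2.59). Genes with none in either line included BRF1, GTF3A, GTF3C4 and POLR2H.

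Of 10 osteoblast marker genes, 4 (40%) had a hotspot within 500 bp of an end in both lines, near the 40.3% of all protein-coding genes, and 1 in Saos-2 only (ALPL). The markers therefore did not set the labelled cell type apart. COL1A1, COL1A2, IBSP, SP7 and SPP1 had none there. Of 6 markers of other cell types, only CD3E had one, in U2OS.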

How the data were processed

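Nuclei were treated with DNase I and 1 library per line was sequenced, per the labels' protocols. Trimmomatic 0.38, BWA 0.7.15 and hg38 are named in the submitters' processing notes. The hotspot caller and read filters are not given in the sources used here. The authors deposited 1 list per library, whose file name gives a false discovery rate of 0.05 and no alternate contigs. Each hotspot has a deposited −log10 value, taken as its significance from its lowest value and its limit of 100. The deposited score column, about 10 times that value, was not used.

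Strand is not in the gene table, so distances are unsigned. Positions were compared in Python 3.11.15 with pandas 2.3.3 and scipy 1.17.1, after a check on simulated intervals. Gene spans came from RefSeq on GRCh38.p14. The 4 tRNA genes of chromosome X and the 22 of the mitochondrial genome were left out. Overlap meant at least 1 bp. The genes named were chosen by rule: the 5 highest sums, the 5 highest genes per line with a hotspot there only, all clusters of 5 or more genes, the 5 highest and lowest families, and the selenocysteine, initiator and Arg-TCT genes, with Pol III list genes that had a hotspot in 1 line only; genes with printed sequences and other neighbours were chosen later. Lists were 44 Pol III machinery genes, 37 other Pol III genes, 10 osteoblast and 6 other cell type markers. Alternatives changed the distance limit, significance, list length, overlap, hotspot merging and cluster gap. Members and lists were chosen with earlier results of these data known. Depth is unknown, so no value has an interval for it.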

Additional observations from a re-analysis of the deposited data

How the results depend on the processing

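No paired analysis was possible because each line had 1 library, and no replicate could be left out. Of 89 values recomputed under other settings, 77 stayed within 1.5 times the count or inside the 95% interval. With the gene span itself required, Saos-2 had 103 tRNA-gene hotspots, of which 69.9% were overlapped, and in U2OS the median width was 349 bp and the median significance 4.69. Lists of equal length gave overlapped shares of 53.4% (Saos-2) and 69.2% (U2OS), and 31 genes with a hotspot in U2OS only. Requiring overlap of 50% of both hotspots gave 39.8% (Saos-2) and 40.9% (U2OS), against 44.3% and 35.9% over all hotspots. Without chromosome 6, a setting chosen after seeing the data, 284 tRNA genes remained. Of these, 20 had a hotspot in Saos-2 only, 30 in U2OS only, 75 in both lines and 159 in neither. The cause of these and the other changes was not tested. Leaving out gene models without a sequence number and counting overlapping hotspots only were also chosen after seeing the data. Unknown depth limits every comparison of the lines.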

Other observations

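The 4 tRNA genes of chromosome X, which belong to no comparison above, had 0 hotspots within 500 bp in Saos-2 and 0 in U2OS.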
